A study of Mus musculus with 4 samples.

Results

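The hormone-sensing luminal regulators are 8 genes that were followed by name through the expression tables of 4 primary mouse mammary tumors: Esr1, Pgr, Prlr, Foxa1, Gata3, Cited1, Areg and Greb1. All 8 were found, each in 1 of 23746 rows per table. Polyadenylated RNA came from 2 tumors of WapCre;Rank;Brca1;p53 females (triple-mutant, tumors 26043 and 26044) and 2 tumors of WapCre;Brca1;p53 females (double-mutant, tumors 26048 and 26050). All 4 animals thus carried floxed Brca1 and p53 alleles and the WapCre deleter. Cre of this transgene acts in luminal and basal cells of the mammary epithelium. The triple-mutant females also carried floxed Rank alleles. Whether the double-mutant females carried any floxed Rank allele is not given. Stromal and immune cells of such a tumor keep the unrecombined alleles. The study calls the triple-mutant females littermates of the double-mutant ones. Which of the 4 animals shared a litter, the age of each and the grade of each sequenced tumor are not given. By genotype, the study reports high-grade and intermediate-grade tumors in double-mutant females but only intermediate-grade ones in triple-mutant females. Grade may therefore go along with genotype among the 4 tumors. The comparison asks how tumors that arose without RANK, the receptor for RANKL, differ from tumors that arose with it.

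In the mammary gland, a subset of luminal cells senses estrogen, progesterone and prolactin and relays these signals to its neighbours. Esr1 encodes estrogen receptor alpha, Pgr the progesterone receptor and Prlr the prolactin receptor. Foxa1 and Gata3 encode transcription factors that open chromatin for, and cooperate with, estrogen receptor alpha in luminal cells. Cited1 encodes a transcriptional co-regulator found in hormone receptor-positive luminal cells, while Areg, which encodes the EGF receptor ligand amphiregulin, and Greb1 are classical estrogen-induced genes. Progesterone acts in these cells in part through RANKL, encoded by Tnfsf11, which reaches RANK on neighbouring cells. Brca1-deficient mammary tumors are commonly of basal type and low in these receptors.

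Promoters are shown for 4 genes because Esr1, Pgr, Foxa1 and Areg shared 1 order of tumors in the data below, with tumor 26043 highest, tumor 26044 next and both double-mutant tumors lowest. Each line gives 250 bases before and 50 bases after the RefSeq start site closest to the 5′ end of the gene's row, on GRCm38.p6 and on the strand of the gene. The windows are chr10:4611739-4612038 (plus strand) for Esr1, chr9:8899583-8899882 (plus strand) for Pgr, chr12:57546062-57546361 (minus strand) for Foxa1 and chr5:91139349-91139648 (plus strand) for Areg. Capitals mark matches, on either strand, to 6 motifs chosen after the sequences had been seen.
Esr1: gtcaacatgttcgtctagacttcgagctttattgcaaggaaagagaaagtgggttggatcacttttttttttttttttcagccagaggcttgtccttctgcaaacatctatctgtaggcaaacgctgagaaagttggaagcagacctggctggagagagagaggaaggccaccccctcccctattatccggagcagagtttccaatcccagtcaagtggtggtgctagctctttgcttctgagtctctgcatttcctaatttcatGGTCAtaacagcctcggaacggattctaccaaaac
Pgr: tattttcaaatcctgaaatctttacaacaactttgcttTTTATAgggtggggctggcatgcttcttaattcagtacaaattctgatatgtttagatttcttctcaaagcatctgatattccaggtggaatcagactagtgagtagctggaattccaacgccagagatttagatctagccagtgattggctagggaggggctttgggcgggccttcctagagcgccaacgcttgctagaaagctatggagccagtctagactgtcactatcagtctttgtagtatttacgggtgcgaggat
Foxa1: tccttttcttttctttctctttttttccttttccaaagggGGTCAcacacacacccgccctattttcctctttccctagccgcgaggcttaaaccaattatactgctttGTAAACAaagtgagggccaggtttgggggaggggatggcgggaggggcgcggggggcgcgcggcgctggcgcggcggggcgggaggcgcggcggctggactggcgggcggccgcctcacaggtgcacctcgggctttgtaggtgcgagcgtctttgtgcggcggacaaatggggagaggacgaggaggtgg
Areg: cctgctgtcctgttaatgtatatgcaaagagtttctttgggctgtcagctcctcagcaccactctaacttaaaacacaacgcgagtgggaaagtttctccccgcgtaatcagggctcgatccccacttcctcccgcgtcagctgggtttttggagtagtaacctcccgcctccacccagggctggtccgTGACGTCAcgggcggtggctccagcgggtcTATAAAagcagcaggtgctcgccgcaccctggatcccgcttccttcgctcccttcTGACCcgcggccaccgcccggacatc

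The palindromic estrogen response element GGTCANNNTGACC was found in 0 of the 8 promoter windows of these genes, and in 0.07% of all 32851 mouse promoter windows of that length. A single arm of that element, GGTCA, which also lies inside the full element, was found in 5 of the 8 windows (Esr1, Foxa1, Gata3, Areg and Greb1) against 40.5% of all windows. Of the other motifs, the Areg window alone held a cyclic AMP response element, TGACGTCA, which began at position -61 from the start site and occurs in 1.79% of windows. A TATA box, TATAAA, began at position -31 in Areg and was also present, farther from the start, in the Pgr and Cited1 windows (13.6% of all windows). The Foxa1 window held the forkhead motif TGTTTAC on its reverse strand (3.65% of all windows), and the GATA motif AGATAA was in 0 of the 8 windows (11.2% of all windows). These are letter matches in short windows and describe no binding.

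Expression was measured as FPKM (fragments per kilobase of transcript, scaled to the total of mapped fragments), so levels can be set side by side between genes. For tests, log2(FPKM + 1) was fitted with limma over the 12752 genes that reached 1 FPKM in 2 or more tumors, and differences are triple-mutant minus double-mutant on that scale. Folds of low genes are understated by it. Read depth is unknown, since the tables hold no counts. Cufflinks' interval reached a median of 8.35% to 8.78% of its midpoint to either side in genes of 1 FPKM or more, and it says nothing of how tumors vary. Rank itself (Tnfrsf11a) was at 2.07 and 0.962 FPKM in the triple-mutant and 10.6 and 11.9 FPKM in the double-mutant tumors. Over all genes, 0 passed an adjusted p of 0.05 in limma (0% of those tested), and 1252 (9.82%) had an unadjusted p under 0.05. That count was 6 under quantile normalization, 5 without limma's trend and 1 with interval midpoints in place of the FPKM, and no hormone-sensing gene was among them.

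For 6 of the 8 genes, Esr1, Pgr, Foxa1, Cited1, Areg and Greb1, each triple-mutant tumor exceeded each double-mutant tumor. Without Greb1, which was not tested, 5 of the 7 tested genes (71.4%) were ordered that way, against 21.3% of all tested genes. Prlr and Gata3 overlapped between the genotypes. Of the 8 genes 7 reached the filter, and Esr1 and Pgr reached it only through the triple-mutant tumors, so that they could hardly have been tested without a difference in that direction. No gene of the set passed the adjusted threshold, with adjusted p values between 0.458 and 0.961 in limma. At an unadjusted p under 0.05 there were 5, all higher in triple-mutant tumors, where 5.91% of all tested genes lay on that side. Without the filter on low values the unadjusted p of these 5 lay between 0.0587 and 0.0937 in limma. Since RNA came from tumor tissue and not from separate cells, fewer hormone-sensing cells and less RNA per cell cannot be told apart.

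**Figure D1:**
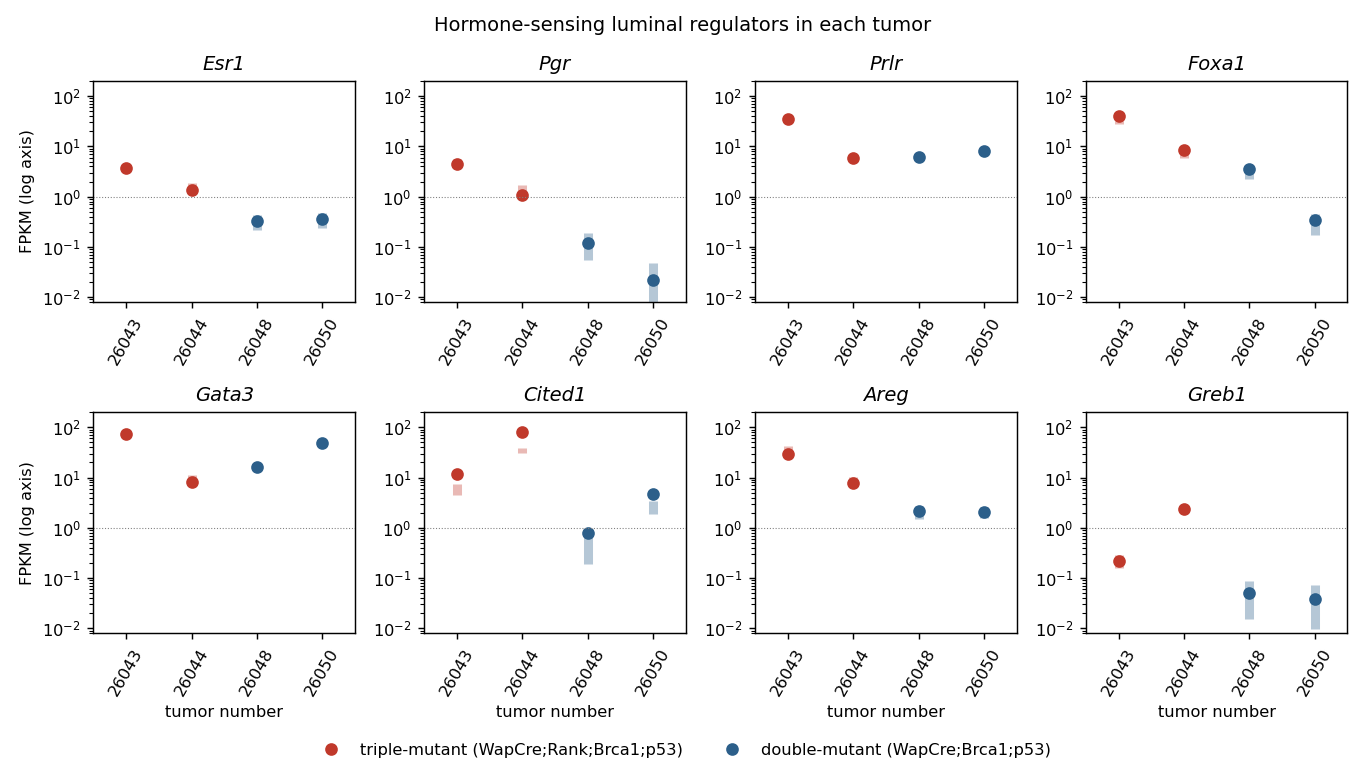
FPKM of the 8 genes in each tumor on a log axis, with red points for triple-mutant and blue points for double-mutant tumors, pale bars for Cufflinks' interval (cut at the lower edge of the plot) and a dotted line at 1 FPKM. Esr1 and Pgr show a step between genotypes, Prlr and Gata3 overlap, and the points of Cited1 lie above their own intervals in 3 of the 4 tumors. Areg is separated too, but its triple-mutant pair differs 3.83-fold, more than its 3.71-fold step between genotypes.

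Among the receptors, Esr1 (chr10:4612046-5003761 on mm10) had 3.66 and 1.39 FPKM in triple-mutant tumors 26043 and 26044 and 0.325 and 0.354 FPKM in double-mutant tumors 26048 and 26050. Both double-mutant values were thus under 1 FPKM and close to each other, while the triple-mutant tumors differed from each other 2.64-fold. The mean was 2.52 ± 1.61 FPKM (SD, n = 2) against 0.340 ± 0.020 FPKM (SD, n = 2), a ratio of 7.43. On the log2(FPKM + 1) scale the difference was 1.32 with a standard error of 0.43 (95% interval 0.18 to 2.45, adjusted p = 0.481 in limma). It was 0.83 without tumor 26043 and 1.80 without tumor 26044, and 2.43 when 0.1 in place of 1 was added to the FPKM (a pseudocount of 0.1). Even in tumor 26043 Esr1 was a low transcript, above only 20.4% of the genes tested. Immunostaining in the study detected neither estrogen receptor alpha nor progesterone receptor protein in tumors of either genotype. Such staining measures protein and is not the same measure as the RNA given here.

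Pgr (chr9:8899833-8968611), a target gene of estrogen receptor alpha as well as a receptor, had 4.45 and 1.06 FPKM in tumors 26043 and 26044 and 0.122 and 0.0217 FPKM in tumors 26048 and 26050. Cufflinks' interval of the last value reached down to 0, so Pgr was barely measurable in that double-mutant tumor. The lower triple-mutant value was 8.64 times the higher double-mutant value. The difference was 1.64 log2 units (standard error 0.55, 95% interval 0.20 to 3.09, adjusted p = 0.485 in limma), and it ran from 0.94 without tumor 26043 to 2.35 without tumor 26044. With a pseudocount of 0.1 it was 3.80.

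Prlr (chr15:10177238-10349180) followed another pattern. It had 34.6 FPKM in tumor 26043, 5.90 FPKM in tumor 26044, 6.05 FPKM in tumor 26048 and 8.21 FPKM in tumor 26050. Tumor 26043 stood apart, and triple-mutant tumor 26044 lay just below both double-mutant tumors. The difference of 0.96 log2 units (standard error 0.84, 95% interval -1.27 to 3.19, adjusted p = 0.722 in limma) turned to -0.23 without tumor 26043. Of the 3 receptors it was the most abundant in every tumor, per kilobase of transcript.

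Of the transcription factors, Foxa1 (chr12:57540632-57546121) had 40.9 and 8.44 FPKM in triple-mutant tumors 26043 and 26044 and 3.62 and 0.341 FPKM in double-mutant tumors 26048 and 26050. The genotypes did not overlap, but the values formed a slope over the 4 tumors, with a 4.85-fold difference within the triple-mutant pair, a 10.6-fold difference within the double-mutant pair and only a 2.33-fold step between tumors 26044 and 26048. Its difference was 2.997 log2 units (standard error 0.97, 95% interval 0.43 to 5.57, adjusted p = 0.480 in limma), and 0.784% of tested genes had a larger one.

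Gata3 (chr2:9857078-9878600) had 74.0 and 7.99 FPKM in tumors 26043 and 26044 and 16.5 and 49.5 FPKM in tumors 26048 and 26050. The triple-mutant pair held both the highest and the lowest value. With a difference of -0.20 log2 units (standard error 1.16, 95% interval -3.27 to 2.88, adjusted p = 0.961 in limma), the tumors leave the direction undetermined, since it ran from -1.73 without tumor 26043 to 1.33 without tumor 26044. Unlike Foxa1, Gata3 was well expressed in both double-mutant tumors, above 60.3% and 84.5% of the genes tested.

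Cited1 (chrX:102247440-102251769) had the largest difference of the set on the log2(FPKM + 1) scale, though not by ratio of means, where Pgr was higher (38.2 against 16.8). It reached 11.9 and 81.3 FPKM in tumors 26043 and 26044 and 0.773 and 4.78 FPKM in tumors 26048 and 26050. Here tumor 26044, not 26043, was highest, and the genotypes did not overlap. The difference was 3.35 log2 units (standard error 1.09, 95% interval 0.47 to 6.23, adjusted p = 0.480 in limma), falling to 2.02 without tumor 26044 and reaching 4.68 without tumor 26043. The FPKM of Cited1 was above its own interval in tumors 26043, 26044 and 26050, at 1.79 to 2.36 times the interval's midpoint, and midpoints gave a difference of 2.71, below the 2.79 of Foxa1. Without tumor 26044 the differences of Foxa1, Areg, Pgr and Prlr were also larger than that of Cited1.

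Among the target genes, Areg (chr5:91139615-91148432) had the smallest unadjusted p of the regulators, 0.0178 in limma. It had 30.1 and 7.86 FPKM in tumors 26043 and 26044 and 2.12 and 2.07 FPKM in tumors 26048 and 26050. The double-mutant tumors were almost equal, and the lower triple-mutant tumor was 3.71 times the higher of them. The mean was 19.0 ± 15.7 FPKM (SD, n = 2) against 2.095 ± 0.033 FPKM (SD, n = 2). Its difference of 2.42 log2 units (standard error 0.67, 95% interval 0.65 to 4.19, adjusted p = 0.458 in limma) lay between 1.52 without tumor 26043 and 3.33 without tumor 26044.

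Greb1 (chr12:16670615-16800886) had 0.221 and 2.34 FPKM in tumors 26043 and 26044 and 0.0513 and 0.0390 FPKM in tumors 26048 and 26050. It reached 1 FPKM in tumor 26044 alone and was therefore not tested. Although the genotypes did not overlap, the triple-mutant tumors differed 10.6-fold from each other, more than the 4.30-fold step from tumor 26048 to tumor 26043. The difference was 0.95 on the log2(FPKM + 1) scale, and 0.22 without tumor 26044.

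**Figure D2:**
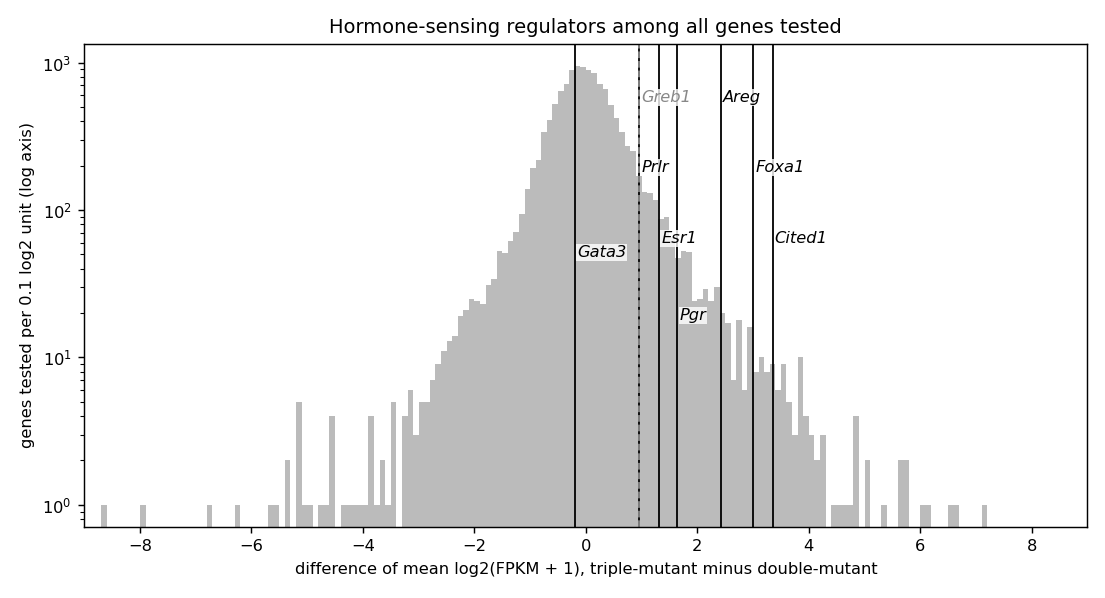
Differences of mean log2(FPKM + 1), triple-mutant minus double-mutant, with grey bars for the 12752 genes tested (counts per 0.1 log2 unit on a log axis) and vertical lines for the 8 genes, dashed for Greb1, which was not tested. Cited1, Foxa1 and Areg lie in the upper tail at 3.35, 2.997 and 2.42, whereas Gata3 lies near the middle at -0.20.

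The genes did not follow a single profile within the triple-mutant pair. Tumor 26043 had the highest of the 4 values for 6 of the 8 genes and tumor 26044 for the other 2, Cited1 and Greb1. In tumor 26044, Cited1 was above 90.6% of the genes tested and Esr1 above 8.93%. In tumor 26043, by contrast, Cited1 was above 48.8% and Gata3 above 89.5%. For Esr1, Pgr, Foxa1, Cited1 and Areg the difference between genotype means was larger than the larger within-genotype difference, and for Greb1, Prlr and Gata3 it was smaller. The within-genotype difference of Gata3 reached 3.06 log2 units in the triple-mutant pair, where that of Esr1 was 0.97.

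**Figure D3:**
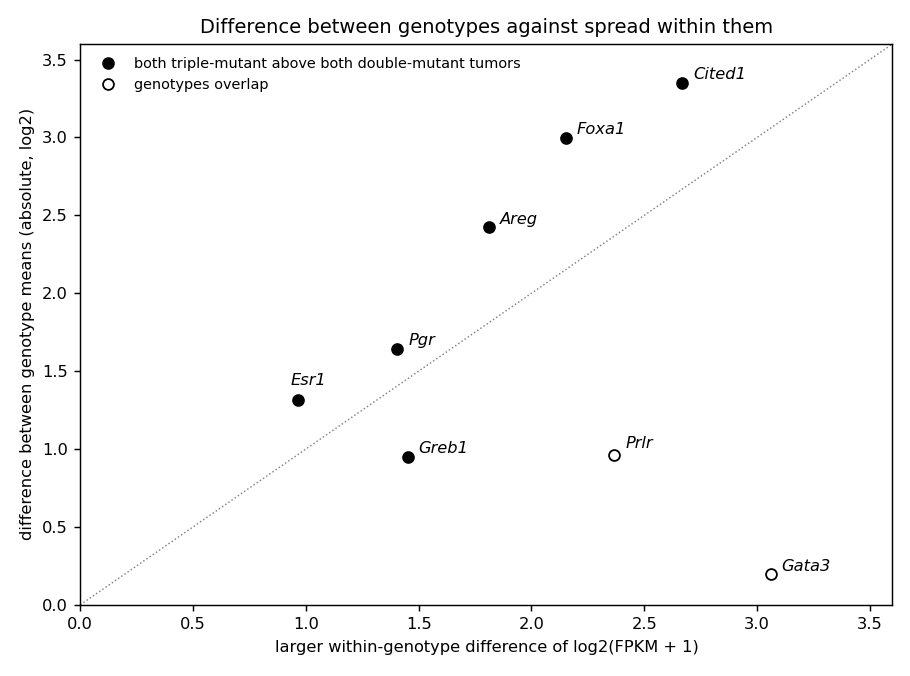
Absolute difference between genotype means (vertical axis) against the larger of the differences within the triple-mutant and within the double-mutant pair (horizontal axis), both of log2(FPKM + 1), for the 8 genes. Filled points mark the 6 genes whose triple-mutant values all exceeded the double-mutant values, and 5 of them lie above the dotted line of equality, with Greb1 below it.

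The FPKM lay outside its own Cufflinks interval in 11 of the 32 values of these genes. This was common throughout the tables, where 45.1% to 53.2% of the genes at 1 FPKM or more lay outside theirs, depending on the tumor. For Pgr, Gata3 and Areg the FPKM was 0.722 to 0.920 times the midpoint in the triple-mutant tumors and at least 0.926 times the midpoint in the double-mutant tumors. For Foxa1 and Cited1 it was above the midpoint in all 4 tumors, at 1.37 and 1.27 times the midpoint for Foxa1 in triple-mutant tumors 26043 and 26044 and 1.31 and 1.10 times in tumors 26048 and 26050. With interval midpoints the difference was larger for Pgr and Areg, at 1.87 and 2.69, smaller for Foxa1, at 2.79, and of opposite sign for Gata3, at 0.016. The part of this offset in the differences was not tested.

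By Euclidean distance between log2(FPKM + 1) values centred on their mean over the 4 tumors, other genes had patterns close to those of the regulators that ranged over more than 2 log2 units. Closest to Areg were Trp73 and R3hdml, at distances of 0.20 and 0.26. Trp73 encodes the p53 family member p73 and had 8.64 and 2.31 FPKM in triple-mutant tumors 26043 and 26044 and 0.0390 and 0 FPKM in the double-mutant tumors. The closest to Foxa1 were Krt15 and Calml3, at 0.37 and 0.64. Krt15, a keratin of stratified epithelia, had 66.0, 11.8, 4.37 and 0.577 FPKM in tumors 26043, 26044, 26048 and 26050, the same slope as Foxa1. Pgr was closest to Upk2 and Dkkl1 (0.15 and 0.18), Prlr to Galnt6 and Cdkn1a (0.18 and 0.27), Gata3 to Dennd2d and Slc39a11 (0.57 and 0.66) and Cited1 to Cbr3 and Amd1 (0.71 and 0.99). With 4 tumors such likeness describes the shape of the values only.

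Genes around the regulators were grouped in lists by their role. Other hormone receptors showed little difference. Of 18 listed, 17 were found and 14 tested, 0 passed the threshold in limma (0 at an unadjusted p under 0.05), 2 were higher in both triple-mutant tumors (14.3% of the tested genes, against 21.3% of all) and 0 were lower, with a median difference of 0.13 beside -0.02 over all genes. The 2 were Thra, the thyroid hormone receptor alpha, and Rxra, a partner of many nuclear receptors, with differences of 0.90 and 0.77 log2 units. Estrogen receptor beta, Esr2, was low throughout, with 0.0988 and 0.136 FPKM in the triple-mutant and 0.427 and 0.555 FPKM in the double-mutant tumors, opposite in direction to Esr1, and did not reach the filter.

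The list of receptor coregulators and luminal transcription factors was mixed. All 20 genes were tested, 0 passed the threshold in limma (3 at an unadjusted p under 0.05), 5 were higher (25%) and 2 lower (10%) in both triple-mutant tumors, against 21.3% and 22.9% of all tested genes, and the median difference was 0.07. Tbx3, a T-box factor of mammary development, had 13.0 and 2.09 FPKM in tumors 26043 and 26044 and 0.774 and 0.229 FPKM in tumors 26048 and 26050 (difference 2.16, adjusted p = 0.508 in limma). Tfap2b, an AP-2 family factor, had 6.45 and 1.35 FPKM against 0.0316 and 0.0636 FPKM (difference 1.997, adjusted p = 0.481 in limma). Both were highest in tumor 26043, as Esr1 and Foxa1 were. Tbx3, Tfap2b and Spdef, 3 of the 5 higher genes, stayed under 1 FPKM in both double-mutant tumors and so reached the filter only through the triple-mutant tumors. Xbp1, a secretory and stress response factor that estrogen receptor alpha can induce, went the other way, with 131 and 62.7 FPKM in the triple-mutant and 284 and 315 FPKM in the double-mutant tumors. The coactivator genes Ncoa1, Ncoa2 and Ncoa3 overlapped between the genotypes.

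Most of the further estrogen response genes overlapped between the genotypes. The study's own gene set analysis reported higher expression of late estrogen response genes in triple-mutant tumors. That set and measure differ from the list and counts used here. Of 23 listed genes 21 were tested, 0 passed the threshold in limma (1 at an unadjusted p under 0.05), and 2 were higher and 2 lower in both triple-mutant tumors (9.52% each way, against 21.3% and 22.9% of all), with a median difference of 0.14. Ccnd1, which encodes cyclin D1, had 302 and 342 FPKM in the triple-mutant and 34.0 and 17.0 FPKM in the double-mutant tumors, a difference of 3.68 log2 units (standard error 0.41, adjusted p = 0.167 in limma). Krt19, a keratin of simple epithelia, had 1154 and 194 FPKM against 139 and 56.7 FPKM, the order of tumors seen for Pgr and Areg. Sgk3, a kinase gene, had a difference of -0.84. Tff1, a standard estrogen target in human cells, was listed at 0 in all 4 tumors. The other 17 tested genes overlapped, among them Myb, Stc2, Bcl2 and Myc.

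Among progesterone response and paracrine genes only 5 of 11 listed were tested, with 0 past the threshold in limma (1 at an unadjusted p under 0.05), 3 higher (60%) and 1 lower (20%) beside 21.3% and 22.9% of all, and a median difference of 0.72. Tnfsf11, which encodes RANKL, had 5.87 and 0.819 FPKM in tumors 26043 and 26044 and 0.204 and 0.216 FPKM in tumors 26048 and 26050. It was above 1 FPKM in tumor 26043 alone and was not tested, yet it had the same order of tumors as Esr1, and its values in the double-mutant tumors were close to each other. Wnt4, a secreted mediator of progesterone, had 19.7 and 3.01 FPKM against 1.28 and 0.652 FPKM (difference 2.23, adjusted p = 0.511 in limma). Calca, the calcitonin gene, was highest in tumor 26044, like Cited1 and Greb1, with 4.49 and 24.9 FPKM against 0.107 and 0.180 FPKM (difference 3.38, adjusted p = 0.396 in limma). It reached the filter only through the triple-mutant tumors. Fkbp5, an immunophilin gene induced by steroid receptors, had a difference of -0.78.

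The list of genes downstream of the prolactin receptor was mixed. All 11 genes of that list were tested, 0 passed the threshold in limma (3 at an unadjusted p under 0.05), and 3 were higher and 3 lower (27.3% each way, against 21.3% and 22.9% of all), with a median difference of -0.11. Jak2, which encodes the kinase bound to the prolactin receptor, had the same order of tumors as Prlr over a narrower range, with 11.1 and 6.89 FPKM in tumors 26043 and 26044 and 7.77 and 9.93 FPKM in tumors 26048 and 26050. In Ptpn11, a phosphatase gene, tumor 26043 likewise stood apart, with 52.1 FPKM against 23.4 to 26.1 FPKM in the other 3. Socs2, a feedback inhibitor induced by STAT5, had 14.2 and 7.95 FPKM in the triple-mutant and 114 and 99.1 FPKM in the double-mutant tumors (difference -3.20, standard error 0.37, adjusted p = 0.167 in limma). Thus the 4 tumors fell into separate pairs for Socs2, while for Prlr tumor 26043 was highest and the other 3 lay together. Elf5, a transcription factor of alveolar cells, had 43.6 and 4.84 FPKM against 66.0 and 103 FPKM, and Stat5a had 17.0 and 15.1 FPKM against 23.8 and 28.8 FPKM. Socs1, another feedback inhibitor, was higher in both triple-mutant tumors, with a difference of 1.21.

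Amphiregulin is cut from the cell surface by the protease ADAM17 and binds the EGF receptor. Of the 13 genes of this arm 8 were tested, 0 passed the threshold in limma (0 at an unadjusted p under 0.05), 1 was higher (12.5%) and 2 were lower (25%) in both triple-mutant tumors, against 21.3% and 22.9% of all, and the median difference was -0.29. Egfr was the higher gene, with 6.37 and 4.42 FPKM in the triple-mutant and 3.43 and 0.930 FPKM in the double-mutant tumors (difference 1.11, adjusted p = 0.553 in limma). Adam17 and Erbb3 were lower, by -0.94 and -1.33 log2 units. The related ligands Tgfa and Hbegf overlapped between genotypes, and Ereg and Egf stayed under 1 FPKM in all 4 tumors, so Areg was the ligand of this family whose genotypes did not overlap among those tested.

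**Figure D4:**
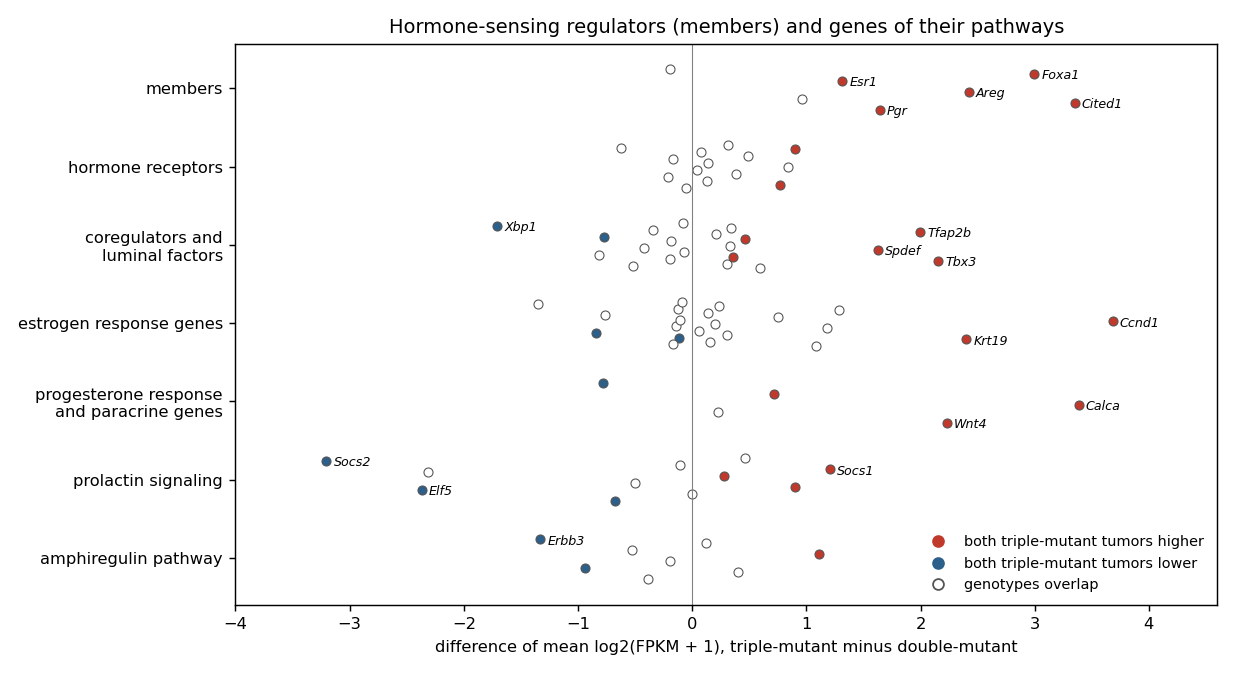
Differences of mean log2(FPKM + 1), triple-mutant minus double-mutant, for the tested genes of the regulators (members) and of 6 lists around them, 1 point per gene and spread vertically for legibility. Red points have both triple-mutant tumors higher, blue points both lower and open points overlapping genotypes, and colored genes beyond 1.2 units are named. Other hormone receptors stay within 1 unit of 0, whereas Ccnd1, Calca, Wnt4, Tbx3 and Tfap2b lie between 1.997 and 3.68.

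Cell type markers differed among the tumors too. The counts in this and the next paragraph stand beside 21.3% of all tested genes higher and 22.9% lower in both triple-mutant tumors. General epithelial and luminal markers (8 of 8 tested, 1 higher and 5 lower in both triple-mutant tumors) summed to 3468 and 547 FPKM in the triple-mutant and 3058 and 2560 FPKM in the double-mutant tumors. Tumor 26044 thus stood apart with the lowest sum, with Epcam at 25.7 FPKM against 347 to 516 FPKM elsewhere and Krt8 at 98.3 FPKM against 579 to 708 FPKM. The same tumor was lowest of the 4 for Prlr and Gata3. Alveolar and luminal progenitor markers (11 of 11 tested, 0 higher and 6 lower) summed to 575 and 56.3 FPKM against 1716 and 6985 FPKM. Lalba and Csn3 were the largest parts of that sum in tumor 26050, at 3813 and 1990 FPKM. The progenitor markers Kit, Aldh1a3 and Cd14 overlapped between the genotypes, as did Csn2 and Ltf. The 6 lower genes were Elf5 and the milk genes Csn1s1, Csn1s2a, Csn3, Wap and Lalba. Wap, 1 of the 6, reached the filter only through the double-mutant tumors. Basal markers (9 of 10 tested, 7 higher and 0 lower) summed to 1780 and 1630 FPKM against 118 and 86.9 FPKM, and so moved in the same direction as the 6 separated regulators. The near-equal triple-mutant sums were made of different genes. Krt14, Krt5 and Krt17 were the largest parts in tumor 26043, at 611, 596 and 435 FPKM. In tumor 26044 they were Acta2 and Tagln, at 898 and 307 FPKM. Acta2 in tumor 26043 was at 64.8 FPKM, beside 59.7 FPKM in tumor 26048, and Tagln and Mylk overlapped. Hormone-sensing cell markers (4 of 5 tested, 2 higher, Wnt4 and Tbx3, and 0 lower) summed to 692 and 47.8 FPKM against 104 and 91.4 FPKM, and this sum overlapped. Ly6a made up most of it in every tumor except 26050, where Prom1 was larger, with 48.2 FPKM against 42.1 FPKM.

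Estrogen and prolactin receptors are also made by fibroblasts and adipocytes. Fibroblast markers were tested for 8 of 9 genes, with 1 higher and 4 lower. They summed to 241 and 139 FPKM in the triple-mutant and 948 and 459 FPKM in the double-mutant tumors. Col1a1 and Col1a2 were the largest parts of that sum, which ran opposite to Esr1. Pdgfra, the higher gene, ran with Esr1, at 2.90 and 19.1 FPKM against 1.63 and 1.44 FPKM. Dcn, Pdgfrb and Thy1 overlapped. Adipocyte markers (3 of 8 tested, 0 higher and 2 lower) summed to 11.0 and 264 FPKM against 2105 and 43.3 FPKM, with tumor 26048 far above the others, Adipoq and Plin1 at 0 in tumor 26044, and Lep at 0 in 3 tumors. Macrophage markers (6 of 7 tested, 0 higher and 5 lower) summed to 151 and 154 FPKM against 473 and 319 FPKM. T cell markers (1 of 7 tested, Cd4, higher) stayed between 1.26 and 4.46 FPKM in sum, and endothelial markers (5 of 6 tested, 1 higher and 0 lower) overlapped at 27.8 and 83.8 FPKM against 45.6 and 25.1 FPKM. The part of these cell types in the levels of the regulators was not tested.

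**Figure D5:**
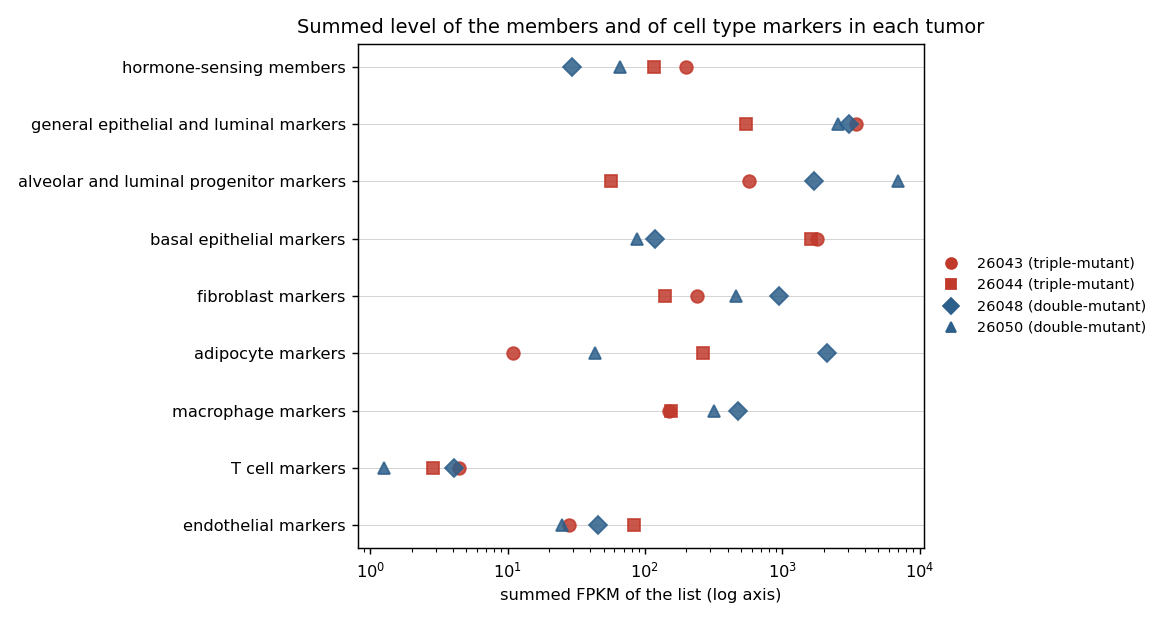
Summed FPKM of the 8 regulators and of 8 cell type marker lists in each tumor, on a log axis, with red symbols for triple-mutant and blue symbols for double-mutant tumors. The regulators and the basal markers are higher in both triple-mutant tumors, at 116 to 200 FPKM and 1630 to 1780 FPKM. In tumor 26044 Cited1 alone was at 81.3 FPKM, so the separation of the regulator sum rests on that gene. The epithelial sum of tumor 26044 lies below the other 3.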

How the data were processed

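Polyadenylated RNA of 4 tumors (2 per genotype) was sequenced as 50-bp single-end reads. The authors aligned them to mm10 with TopHat2 2.0.10 and Bowtie 0.12.9 and deposited, per gene and tumor, the FPKM estimated by Cufflinks 2.1.1 with the bounds of its interval. The authors' read counts were not used here, and FPKM were compared in their place. Tables were joined on symbol and position (23746 rows, starts raised by 1). Genes that reached 1 FPKM in 2 or more tumors were fitted as log2(FPKM + 1) with limma 3.58.1 (lmFit, eBayes with trend; R 4.3.3), with Benjamini-Hochberg adjustment over 12752 genes and a threshold of 0.05. The fit was run on simulated data that gave every gene the same spread, which the genes of these tumors do not have. The regulators and lists were chosen with earlier results of these data known. All regulators are named, with up to 3 genes per list of largest difference among those whose genotypes did not overlap, the defining genes of each arm (Esr2, Tnfsf11, Wnt4, Stat5a, Elf5, Egfr) and the 2 closest patterns. The values of 1 listed gene are not reported here. Further genes named in the lists (Ncoa1, Ncoa2, Ncoa3, Tff1, Myb, Stc2, Bcl2, Myc, Tgfa, Hbegf, Ereg, Egf, Spdef, Jak2, Ptpn11) and markers were chosen after their values were seen. The study describes the genotypes as littermates without saying which animals shared a litter, so no litter term could be fitted. Standard errors, intervals and p values of limma are moderated, with each gene's variance drawn toward a trend over all genes tested. They measure no spread beyond that between these tumors. Joining used pandas 2.3.3 in Python 3.11.15 and plotting matplotlib 3.10.9, and promoter sequences came from RefSeq (GRCm38.p6, all 8 genes matched).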

Additional observations from a re-analysis of the deposited data

How the results depend on the processing

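The number of genes past the threshold was 0 as reported and with each tumor left out, and became 6 under quantile normalization, 5 without limma's trend and 1 with interval midpoints. The regulators that were tested kept their direction under a pseudocount of 0.1, no filter, TPM, quantile normalization, interval midpoints, no trend and genes of status OK, except that Gata3 turned to 0.0164 with interval midpoints. The pseudocount of 0.1 moved the difference from 1.32 to 2.43 for Esr1 and from 1.64 to 3.80 for Pgr. Esr1, Pgr and Greb1 did not reach a filter of 5 FPKM. With each tumor left out, the log2 differences ran from -0.225 to 2.14 for Prlr, from -1.73 to 1.33 for Gata3, from 1.92 to 4.07 for Foxa1, from 2.02 to 4.68 for Cited1 and from 1.52 to 3.33 for Areg. Esr1 and Pgr reached the filter only in the fits that kept both triple-mutant tumors (1.30 to 1.33 and 1.58 to 1.71); as plain mean differences without tumor 26043 and without tumor 26044 they were 0.83 and 1.80 for Esr1 and 0.94 and 2.35 for Pgr. Counts of list genes whose genotypes did not overlap moved from 2 to 1 with TPM for other hormone receptors, from 4 to 7 without a filter for progesterone genes, and with a filter of 5 FPKM from 7 to 4 for coregulators and luminal factors, from 4 to 2 for estrogen response genes and from 4 to 2 for progesterone genes. With 1 tumor left out, fewer tumors must be separated, and these counts ran from 6 to 8 for hormone receptors, 8 to 14 for coregulators, 6 to 19 for estrogen response genes, 3 to 5 for progesterone genes, 7 to 11 for prolactin signaling and 5 to 7 for the amphiregulin pathway. No paired analysis was possible because it is not given which animals shared a litter. Read depth is unknown, so its limit on Pgr, Greb1 and Esr1, which stayed under 1 FPKM in both double-mutant tumors, could not be given.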
